A study of Mus musculus with 12 samples.

Results

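The 78 genes for mitochondrial ribosomal proteins described here are all those with a symbol of the form Mrpl or Mrps followed by a number in either of the deposited count tables. They are part of 17912 genes listed in all, and all 78 were in both tables and passed the filter on low counts. By the known composition of the particle, 51 encode proteins of the large subunit, Mrps30 and Mrps18a among them in spite of their names, and 26 encode proteins of the small subunit. The last, Mrps36, is named as a ribosomal protein but belongs to the oxoglutarate dehydrogenase complex of the citric acid cycle. Of the ribosomal members 46 have a bacterial counterpart and 31 are specific to mitochondria. The lowest count of any of them in any library was 301, for Mrps10.

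Mitochondria carry their own ribosome, the mitoribosome, which translates the few mRNAs of the mitochondrial genome into core subunits of the respiratory chain and ATP synthase. All of its proteins are encoded in the nucleus, made in the cytosol and imported. Some descend from bacterial ribosomal proteins and others were added in the mitochondrial lineage. Heart muscle is rich in mitochondria and relies on oxidative phosphorylation.

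The study removed Ddx5, which encodes a DEAD-box RNA helicase, from mouse cardiomyocytes and sequenced polyadenylated RNA of the left ventricle of males, in 4 groups of 3 libraries. The mCKO group carried floxed Ddx5 alleles and the MYH6Cre transgene, was untreated and was 8 weeks old, and CTR1 was its age-matched Ddx5flox/flox control. The iCKO group carried Ddx5flox/flox with Myh6MerCreMer, a Cre that is active once tamoxifen is bound, and CTR2 was age-matched Ddx5flox/flox, with no age given in the labels. Both received tamoxifen into the peritoneum at 20 mg/kg/day on 5 days in a row, and tissue was taken after 7 days of tamoxifen according to the series design. Both Cre transgenes are driven by the promoter of Myh6, a cardiomyocyte myosin gene, and the controls are listed without Cre, so that loss of Ddx5 and presence of Cre cannot be told apart. In whole ventricle, fewer cells of a type and less RNA per cell cannot be told apart either. The labels do not say that replicates were separate animals, so the p-values reflect sample-to-sample spread only, which may be technical.

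Ddx5 itself was lower in all 6 knockout libraries, at 218 to 233 CPM in mCKO against 397 to 636 in CTR1, and at 192 to 219 CPM in iCKO against 566 to 697 in CTR2 (two-sided exact permutation p = 0.1 in each, the smallest that 3 against 3 allows). By edgeR quasi-likelihood the log2 fold change of Ddx5 was -1.29 ± 0.20 in mCKO (SE, adjusted p = 0.17, so not called). In iCKO the same fit gave -1.57 ± 0.15 (adjusted p = 1.7e-04). With the replicate number fitted as a block the adjusted p of Ddx5 in mCKO was 0.0019. CPM, the depth-scaled unit used throughout, are counts over the library size after scaling for composition. Libraries held 19682300 to 25871900 gene counts, and the 3 iCKO libraries were the largest. All 7 cardiomyocyte markers fixed for the check (Myh6, Tnnt2, Tnni3, Actc1, Myl2, Ryr2 and Mybpc3) were present in every library. Replicate 3 stood apart in CTR1, mCKO and iCKO. The 79 cytosolic ribosomal protein genes lay there at a median of 0.73, 0.97 and 0.97 on the log2 scale above the mean of the other libraries of their group. The 78 mitochondrial genes were shifted with them, by a median of 0.18, 0.34 and 0.51 on the same measure. In iCKO replicate 3, 75 of 78 were above the mean of the other iCKO libraries. In these 3 libraries the shift of a mitochondrial ribosomal gene went with its transcript length, shorter transcripts being higher (Spearman's rho across the 78 genes of -0.52, -0.55 and -0.37, a description, since the genes share a library). Over all tested genes with a known length rho was -0.26, -0.32 and -0.61, so the relation was not particular to this family. Whether this has a part in the differences below was not tested, and counts of calls without these libraries are given beside the main counts of each comparison.

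In control heart the abundance of these transcripts spanned a wide range. Per kilobase of the principal transcript, Mrpl42, a mitochondrion-specific protein of the large subunit, was highest in CTR1 at 529.6 ± 74.98 CPM per kilobase (SD, n = 3), and it was highest in CTR2 at 425 ± 39.4. Next in CTR1 came Mrps21 at 209.8 ± 51.9, a small-subunit protein, and Mrpl12 at 179 ± 27.0, which forms the stalk that recruits translation factors. Mrpl30 stood at 165 ± 39.5 and Mrps23 at 133 ± 11.98. The spreads of Mrps21, Mrpl12 and Mrpl30 overlapped, so that their order is not resolved, whereas Mrpl42 was above them on this scale by more than the spreads. The median of the 78 genes was 41.2 CPM per kilobase in CTR1 and 34.2 in CTR2. Mrpl17 was the lowest in both control groups, at 6.27 ± 0.870 in CTR1 and 5.53 ± 0.361 in CTR2. The order depends on the length used: over the union of all annotated exons Mrpl12 ranked 1 and Mrpl42 ranked 5 in CTR1. Unscaled for length, Mrps6, Mrps10 and Mrpl47 were the least counted, with Mrps6 at 17.9 ± 2.57 CPM in CTR1.

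Summed over the 78 genes, the transcripts for the mitoribosome made up 0.520% ± 0.0553 of all gene counts in CTR1, 0.524% ± 0.0953 in mCKO, 0.428% ± 0.0322 in CTR2 and 0.371% ± 0.0671 in iCKO (SD, n = 3). The CTR1 libraries held 5149, 4983 and 5858 CPM of them and the mCKO libraries 4450.2, 4822 and 6019. These groups overlapped, and replicate 3 was the highest of each. In CTR2 the sums were 4999, 4372 and 4434 CPM, and in iCKO they were 3129.6, 2938 and 4318. All 3 iCKO libraries lay below all 3 CTR2 libraries, replicate 3 by a narrow margin, and the iCKO mean of 3462 ± 747 CPM was 75.2% of the CTR2 mean of 4602 ± 345. This separation came with the scaling for composition: as a share of gene counts the iCKO libraries held 0.337%, 0.327% and 0.448% and the CTR2 libraries 0.464%, 0.403% and 0.416%, which overlap, and the iCKO mean was 86.6% of control. Large-subunit transcripts outnumbered small-subunit transcripts by 2.54 ± 0.0604 in CTR1, 2.61 ± 0.0449 in mCKO, 2.56 ± 0.0457 in CTR2 and 2.502 ± 0.0131 in iCKO, and the ranges of 1 SD around the means of knockout and control overlapped in both experiments.

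**Figure D1:**
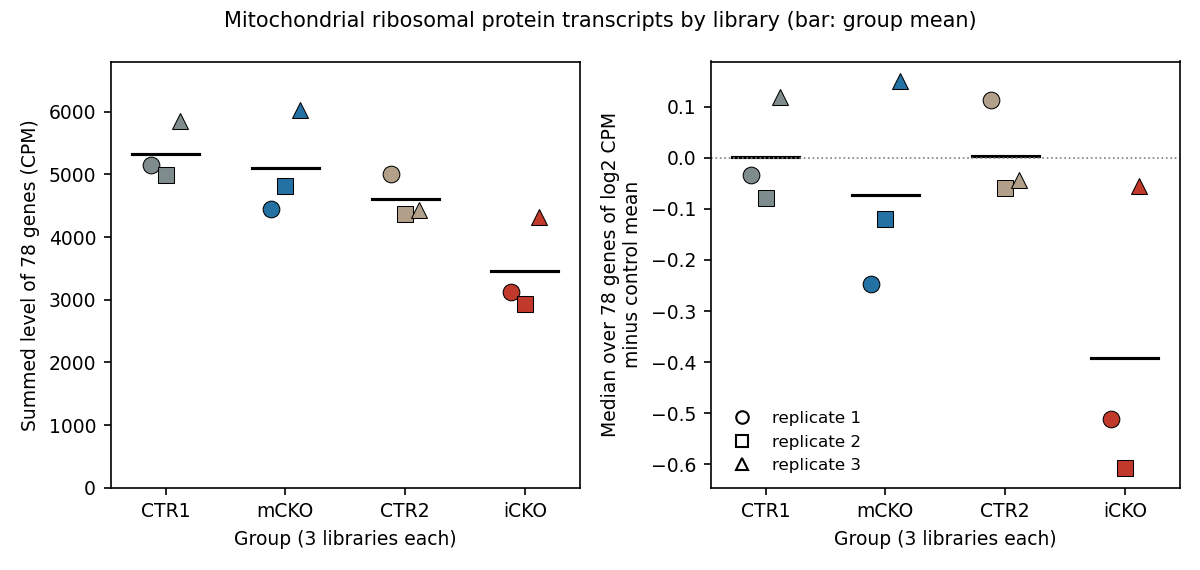
Left, the summed level in CPM of the 78 genes in each of the 12 libraries; right, the median over the 78 genes of log2 CPM minus the mean of the control group of that experiment. Symbols are replicates 1 to 3 and bars are group means; the iCKO libraries sit at 3129.6, 2938 and 4318 CPM, below the CTR2 libraries, and replicate 3 is the highest library of CTR1, mCKO and iCKO.

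In the tamoxifen-induced knockout more of these genes fell than rose. Against CTR2, 27 of the 78 passed the test as lower and 2 as higher, and 64 of 78 had a log2 fold change below 0 (edgeR quasi-likelihood over 13548 genes, Benjamini-Hochberg adjusted p under 0.05). Of all genes tested, 19.5% were called lower and 25.2% higher in the same comparison. The median log2 fold change of the 78 genes was -0.40, and that of all genes 0.03. By group means, 5 genes stood under 50% of CTR2, 30 at 50 to 75%, 29 at 75 to 100% and 14 above it. In 33 genes all iCKO libraries were below all CTR2 libraries and in 4 all were above (27% and 31.9% of all genes). With iCKO replicate 3 left out these were 65 and 3 (34.4% and 36.1% of all genes).

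Calls fell on both subunits and on both origins. Of the 51 large-subunit genes 18 were lower and 1 was higher, with a median log2 fold change of -0.39, and of the 26 small-subunit genes 8 were lower and 1 higher, with a median of -0.40. Of the 46 genes with a bacterial counterpart 13 were lower and 1 higher, and of the 31 mitochondrion-specific genes 13 were lower and 1 higher. Without iCKO replicate 3, 35 large-subunit and 22 small-subunit genes were lower, and 34 with a bacterial counterpart and 23 specific to mitochondria, each class with 1 higher. None of these classes was tested against another.

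**Figure D2:**
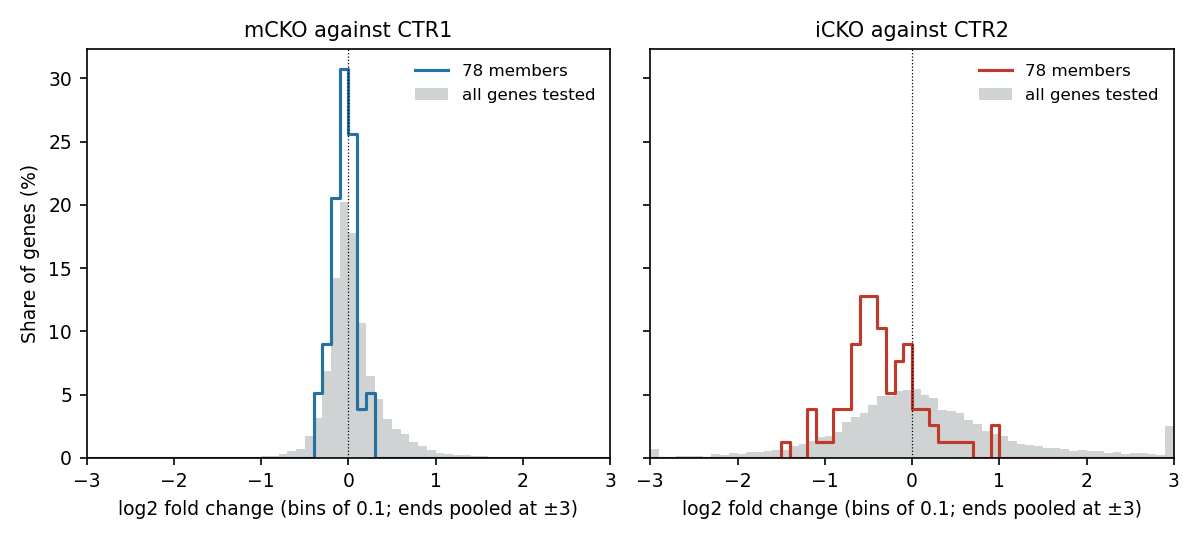
Share of genes in percent by log2 fold change in bins of 0.1, for the 78 mitochondrial ribosomal protein genes (line) and all genes tested (grey), in mCKO against CTR1 (left) and iCKO against CTR2 (right). In iCKO the line is centred at -0.40 with 2 genes near 0.9, and all genes are centred at 0.03 with wider tails; in mCKO both are centred near 0.

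Mrps35, a mitochondrion-specific protein of the small subunit (Entrez 232536, chromosome 6, 147042764 to 147073991, plus strand, GRCm38), was the most reduced. It stood at 99.2, 79.6 and 83.9 CPM in CTR2 and at 34.4, 28.05 and 34.3 CPM in iCKO. Every iCKO library was below every CTR2 library, replicate 3 included, and the mean was 36.8% of control. The log2 fold change was -1.44 ± 0.16 (SE, adjusted p = 2.8e-04).

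Mrpl42 (Entrez 67270, chromosome 10, 95480805 to 95501940, minus strand), the most abundant member per length, was measured at 313, 265 and 271 CPM in CTR2 and at 129.9, 105 and 142 CPM in iCKO. The groups were far apart and the iCKO mean was 44.4% of control (log2 fold change -1.17 ± 0.17, adjusted p = 8.7e-04). With this drop Mrpl42 lost more CPM than any other member, though at 189 ± 28.1 CPM per kilobase it still had the highest mean per length in iCKO, beside Mrpl33 at 186 ± 80.6.

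Mrps9, the counterpart of a bacterial protein whose tail reaches the tRNA in the small subunit (Entrez 69527, chromosome 1, 42851233 to 42905683, plus strand), held 80.9, 70.3 and 70.8 CPM in CTR2 and 33.8, 30.0 and 35.6 CPM in iCKO. Its log2 fold change was -1.16 ± 0.14 (adjusted p = 4.2e-04) and the groups did not overlap. Mrpl4, a bacterial-type protein of the large subunit that lines the exit tunnel for the new chain (Entrez 66163, chromosome 9, 21002738 to 21008839, plus strand), held 109.6, 102 and 103 CPM in CTR2. It fell to 46.4, 42.6 and 53.6 CPM in iCKO, 45.4% of control (log2 fold change -1.14 ± 0.14, adjusted p = 4.9e-04). Mrps36, the oxoglutarate dehydrogenase component (Entrez 66128, chromosome 13, 100735955 to 100744659, minus strand), was reduced to a similar degree, from 66.7, 49.2 and 49.7 CPM to 27.6, 22.5 and 32.6 CPM. All 3 of its iCKO libraries were below the CTR2 libraries (log2 fold change -1.001 ± 0.19, adjusted p = 0.0037).

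A second tier fell by less. Mrpl55, specific to mitochondria, went from 76.7, 63.5 and 61.2 CPM to 32.7, 29.8 and 42.7 CPM (log2 fold change -0.94 ± 0.18, adjusted p = 0.0036). Mrpl3, the counterpart of a bacterial protein that is among the first to join the large subunit, went from 109, 95.7 and 88.3 CPM to 58.7, 55.1 and 53.0 CPM (-0.81 ± 0.14, adjusted p = 0.0022). In both genes the groups were separate, and in Mrpl3 replicate 3 was the lowest iCKO library rather than the highest. Mrpl34, Mrpl28 and Mrpl18, all with bacterial counterparts in the large subunit, had log2 fold changes of -0.87, -0.87 and -0.79 (adjusted p = 0.013, 0.0060 and 0.0063). The other 17 genes called lower lay between -0.73 and -0.46. They comprised 11 large-subunit genes, among them Mrpl14 (-0.73), Mrpl37 (-0.71), Mrpl44 (-0.68), which belongs to the ribonuclease III family, and Mrpl2 (-0.65), and 6 small-subunit genes, among them Mrps26 (-0.70), Mrps21 (-0.65) and Mrps2 (-0.54). Exons of 30 of the 78 genes share 50 bases or more with another annotated gene, 8 of the 27 called lower and both called higher among them, and whether counting used the strand is not given in the sources used here. Of the genes described above, Mrps35, Mrpl42, Mrps9, Mrpl4, Mrps36 and Mrpl55 have no such overlap.

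**Figure D3:**
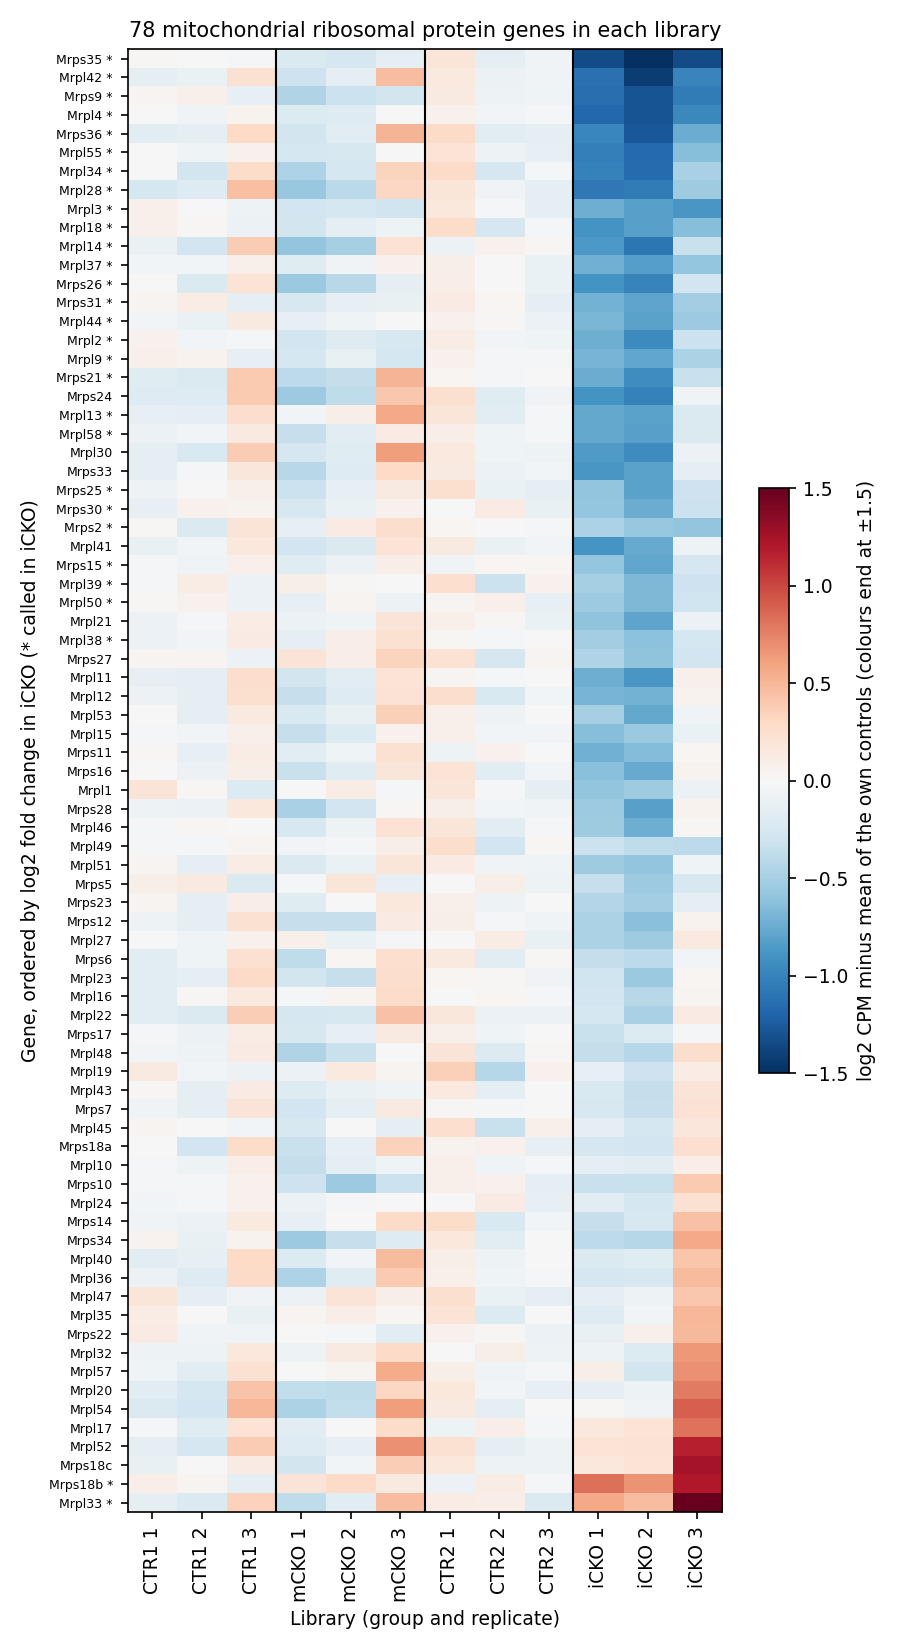
Heat map of log2 CPM minus the mean of the control group of the same experiment, for the 78 genes (rows, from the lowest to the highest log2 fold change in iCKO, with * where called in iCKO) in the 12 libraries (columns). Blue is below control and red above, with colours ending at ±1.5; iCKO replicates 1 and 2 are blue for most genes, and replicate 3 is blue at the top of the map and red at the bottom.

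The distance from control depended on the library. In iCKO replicate 1, 67 of the 78 genes were below all CTR2 libraries and 4 above, and in replicate 2 it was 66 and 5. In replicate 3 it was 33 below and 26 above. Shares over all genes are not given for single libraries, so these counts are not read as a trait of the 78 genes. Without iCKO replicate 3 the count of lower calls was 58 (24.1% of all genes), with all 27 called again, and 2 were higher (25.7% of all genes). Leaving out another single library lowered it, to 17 without iCKO replicate 1, 14 without iCKO replicate 2, 15 without CTR2 replicate 1 and 16 without CTR2 replicate 3. Shares of all genes are not given for these fits, so a loss of calls over all genes cannot be told from a loss in this family. The 7 genes Mrps35, Mrpl42, Mrps9, Mrpl4, Mrps36, Mrpl55 and Mrpl3 were called lower in each of the 20 alternative fits, and no call in either direction turned its sign in any of them. With library sizes alone in place of composition scaling, the median of all genes moved to 0.24 and that of the 78 genes to -0.20. The distance between them was -0.44, against -0.43 with scaling, while calls went to 15 lower and 5 higher.

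Single libraries also decided some of the calls given above. Mrpl34 lost its call without iCKO replicate 2 (log2 fold change -0.74, adjusted p = 0.050) and without CTR2 replicate 1 (-0.72, adjusted p = 0.051). Mrpl28 and Mrpl18 kept theirs when any 1 library was left out, but lost them in 3 and 2 of the 20 alternatives, all with both libraries of a replicate number left out (adjusted p up to 0.078 and 0.15). In all, 14 of the 29 called members lost their call when some 1 library was left out, and those besides Mrpl34 and Mrpl33 were in the tier at -0.73 and above.

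Mrps18b ran the other way. It encodes 1 of 3 proteins related to bacterial S18, sits in the small subunit and is classed here as specific to mitochondria (Entrez 66973, chromosome 17, 35910379 to 35916389, minus strand). The CTR2 libraries held 26.7, 30.6 and 28 CPM and the iCKO libraries 50.3, 45.2 and 65.1 CPM, all above control, and the mean was 188% of it. The log2 fold change was 0.91 ± 0.17 (adjusted p = 0.0033), and the call was made in each of the 20 alternative fits. Of its exonic bases, 30.5% are shared with Gm16279 on the other strand, so reads of that gene may be included. Its paralog Mrps18c, the closest to the bacterial protein, stood at 25.7, 21.9 and 21.8 CPM in CTR2 and at 25.9, 26.6 and 54.9 CPM in iCKO. The groups did not overlap, but by little in replicates 1 and 2, and the log2 fold change of 0.63 ± 0.29 did not pass the test (adjusted p = 0.11). Mrps18a, the paralog that joined the large subunit, had 76.5, 77.4 and 68.0 CPM in CTR2 and 62.2, 60.3 and 87.9 CPM in iCKO, groups that overlapped (-0.08 ± 0.18, adjusted p = 0.75). The 3 paralogs were thus at different levels relative to control, and differences between them were not tested.

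Mrpl33, a small bacterial-type protein of the large subunit (Entrez 66845, chromosome 5, 31596935 to 31664384, plus strand), was the other higher gene. It was measured at 50.4, 49.8 and 40.2 CPM in CTR2 and at 69.0, 64.0 and 133 CPM in iCKO. Exon overlap with Gm43809 covers 3.56% of it. All iCKO libraries were above control, replicate 3 by far the most, and the log2 fold change was 0.92 ± 0.28 (adjusted p = 0.027). Without iCKO replicate 3 it was 0.47 (adjusted p = 0.015), and the call was lost without CTR2 replicate 1 (0.97, adjusted p = 0.063), without CTR2 replicate 2 (0.97, adjusted p = 0.063) or without CTR2 replicate 3 (0.82, adjusted p = 0.096). Mrpl17, named after its values were seen, was the remaining gene whose iCKO libraries were all above control (log2 fold change 0.42 ± 0.20, adjusted p = 0.11).

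The sequences before the 78 genes were looked at for shared motifs. In RefSeq (GRCm38.p6), 69 of the 78 genes had a promoter entry, 75 windows in all, each running from 250 bases before the transcription start to 50 after it. The letters CCGGAAG, the core bound by the ETS factor GABP, stood on either strand in 26 of the 75 windows (34.7%), against 8.86% of all 32851 promoters. The letters GCGCATGCG of the NRF1 site were in 9.33% of the 75 and 1.75% of all, and AAGATGGCG of YY1 in 10.7% and 1.4%. GGGCGGG of SP1 was in 42.7% and 25.6%, the TATA box TATAAA in 6.67% and 13.6%, and TCAAGGTCA of the oestrogen-related receptors in 0% and 0.423%. None of these motifs contains another. Set against the genes of the count tables that have an entry, GABP letters were before 37.7% of the 69 genes and 15.7% of 14017, and SP1 letters before 42% and 44.6%. In the same sets NRF1 letters were before 10.1% and 3.18%, YY1 letters before 11.6% and 2.65%, and the TATA box before 7.25% and 11%. By the iCKO test, GABP letters were in the windows of 6 of 23 genes called lower, both called higher and 18 of 44 not called. A match is a run of letters and not a measured binding site.

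Below are the promoters of the 2 genes called higher in iCKO, Mrps18b (chr17:35916391-35916690, minus strand) and Mrpl33 (chr5:31613701-31614000, plus strand), and of 2 called lower, Mrpl42 (chr10:95501900-95502199, minus strand) and Mrpl3 (chr9:105053018-105053317, plus strand). They show the GABP letters in windows of genes of either direction, beside 1 window with the YY1 letters; capitals mark exact matches of the NRF1, GABP or YY1 letters on either strand, and each runs 5′ to 3′ along the gene's strand.
Mrps18b: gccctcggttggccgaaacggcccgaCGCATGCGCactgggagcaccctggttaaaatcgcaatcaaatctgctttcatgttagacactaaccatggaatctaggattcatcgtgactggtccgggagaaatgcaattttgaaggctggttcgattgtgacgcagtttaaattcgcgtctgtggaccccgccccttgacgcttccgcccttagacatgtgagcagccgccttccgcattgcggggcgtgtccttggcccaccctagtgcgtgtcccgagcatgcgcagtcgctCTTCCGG
Mrpl33: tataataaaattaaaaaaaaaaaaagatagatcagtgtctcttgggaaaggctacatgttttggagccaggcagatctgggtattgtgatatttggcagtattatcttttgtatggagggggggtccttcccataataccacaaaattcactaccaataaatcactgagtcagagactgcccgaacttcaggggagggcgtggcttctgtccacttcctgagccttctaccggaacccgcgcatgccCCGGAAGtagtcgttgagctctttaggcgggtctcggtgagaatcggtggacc
Mrpl42: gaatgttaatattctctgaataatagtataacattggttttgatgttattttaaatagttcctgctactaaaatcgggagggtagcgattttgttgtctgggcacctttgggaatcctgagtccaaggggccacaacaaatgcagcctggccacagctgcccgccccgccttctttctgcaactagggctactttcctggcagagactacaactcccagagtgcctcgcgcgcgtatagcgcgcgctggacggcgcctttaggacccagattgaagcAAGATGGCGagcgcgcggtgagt
Mrpl3: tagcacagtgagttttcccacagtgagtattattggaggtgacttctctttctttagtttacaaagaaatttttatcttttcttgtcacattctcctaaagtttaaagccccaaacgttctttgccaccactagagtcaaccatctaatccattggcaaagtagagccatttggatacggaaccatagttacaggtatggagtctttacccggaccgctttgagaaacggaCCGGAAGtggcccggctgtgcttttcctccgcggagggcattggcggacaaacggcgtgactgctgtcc
Mrps18b held the NRF1 letters far from its start and the GABP letters just after it, on the opposite strand in both cases. In Mrpl33 the GABP letters ran across the start and in Mrpl3 they stood just before it, and Mrpl42 the YY1 letters just after it.

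In the constitutive knockout differences were much smaller. Against CTR1 none of the 78 genes was called without a replicate block (edgeR quasi-likelihood; 0% of 13353 genes were called at all), 5 were at an unadjusted p under 0.05 (1164 or 8.72% of all genes), and DESeq2 and limma-voom called 0. The median log2 fold change was -0.06, against 0.01 for all genes, and it was 0.02 with library sizes alone. The means of the 78 genes lay between 76.3% and 116% of CTR1. In 6 genes all mCKO libraries were below all CTR1 libraries and in 2 all were above (7.3% and 7.69% of all genes).

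Replicate 3 of CTR1 and of mCKO departed from their group means in like ways, and the replicate number was also fitted as a block. For replicates 1 and 2 a pairing by number is not shown. With 3 libraries per group, a replicate 3 that stands apart in both groups makes the others deviate alike whatever their number. With the block 10 of the 78 genes were called lower and 0 higher, where 6.45% of all genes were called lower and 7.32% higher. Of the 10, 5 belong to the large subunit and 5 to the small subunit, and their log2 fold changes lay between -0.39 and -0.22. The calls rest on the scaling and on all libraries. With the block and library sizes alone 5 were lower and 4 higher. With the block but without both replicate 1, both replicate 2 or both replicate 3 libraries 5, 2 and 1 were lower. The last is 1.28% of the 78 genes, near the 1.27% of all genes called lower in that fit. Without replicate 3 and without the block 6 were lower (7.69%), against 3.94% of all genes. All 6 were among the 10 (Mrps9, Mrpl3, Mrps34, Mrps26, Mrpl14 and Mrpl48). For the other fits named here shares of all genes are not given.

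Mrps10, a small-subunit protein with a bacterial counterpart (Entrez 64657, chromosome 17, 47368887 to 47381417, plus strand), had 21.6, 21.7 and 23.0 CPM in CTR1 and 17.8, 15.1 and 17.6 CPM in mCKO. All mCKO libraries were lower, by a log2 fold change of -0.39 ± 0.09 with the block (adjusted p = 0.019; 0.35 without). Mrps9 had 77.5, 79.5 and 69.3 CPM in CTR1 and 55.1, 60.3 and 62.4 CPM in mCKO (-0.35 ± 0.08 with the block, adjusted p = 0.013; 0.37 without). Here too the groups were separate. Mrpl3 held 110.1, 105 and 99.4 CPM in CTR1 and 86.1, 87.3 and 85.3 CPM in mCKO, again with no overlap (-0.28 ± 0.06 with the block, adjusted p = 0.014; 0.41 without).

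For Mrps34, a mitochondrion-specific small-subunit protein, the CTR1 libraries gave 93.7, 83.7 and 93.4 CPM and the mCKO libraries 61.6, 71.1 and 78.7 CPM. The groups did not overlap (-0.36 ± 0.08 with the block, adjusted p = 0.014; 0.46 without), but 63.4% of its exonic bases are shared with Mapk8ip3 and 37% with Nme3. Mrpl2 was the fifth called gene with separate groups, at 102, 94.8 and 96.0 CPM in CTR1 and 79.8, 85.1 and 82.3 CPM in mCKO (-0.24 ± 0.07 with the block, adjusted p = 0.031; 0.50 without). The other 5, Mrps26, Mrpl14, Mrpl48, Mrps28 and Mrpl28, had overlapping groups. In Mrpl28 the CTR1 libraries held 84.8, 89.4 and 140.0 CPM and the mCKO libraries 68.9, 77.3 and 126 CPM, lower within each number while replicate 3 was high in both groups. Its log2 fold change was -0.22 ± 0.06 with the block (adjusted p = 0.043) and -0.21 ± 0.29 without (adjusted p = 0.96). Mrps35 was also lower in every mCKO library than in any CTR1 library, at 79.3, 77.4 and 83.5 CPM against 93.3, 92.6 and 89.9 CPM, but did not pass the test (-0.20 ± 0.06 with the block, adjusted p = 0.061).

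The 2 genes whose mCKO libraries were all above CTR1 were Mrps27 and Mrps18b. Mrps27, specific to mitochondria and of the small subunit, held 63.7, 63.6 and 58.0 CPM in CTR1 and 70.5, 66.3 and 77.9 CPM in mCKO (0.21 ± 0.08 with the block, adjusted p = 0.096). Mrps18b held 31.0, 29.7 and 26.3 CPM in CTR1 and 33.0, 35.2 and 31.8 CPM in mCKO (0.20 ± 0.08 with the block, adjusted p = 0.11). Neither passed the test with or without the block.

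The 2 knockouts were compared through their own controls in 1 fit of all 12 libraries. They differ in the Cre, in tamoxifen and in how long Ddx5 had been absent, and these cannot be told apart. The age of iCKO and CTR2 is not given and the count tables are separate, so age and preparation may differ as well. The log2 fold change in mCKO minus that in iCKO was called above 0 for 12 of the 78 genes and below 0 for 1, Mrps18b, where 11% of all genes were called above and 9.88% below. The median of this difference was 0.39 over the 78 genes and 0.03 over all genes. Without iCKO replicate 3 it was called above 0 for 37 genes, and leaving out another library gave 5 to 13. The counts were 7 without mCKO replicate 2, and 5 without CTR1 replicate 1, CTR1 replicate 2, iCKO replicate 2 or CTR2 replicate 1. With the block it was 17 above and 1 below. For these alternative fits shares of all genes are not given, so their counts are not set against a background.

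Mrps35 differed most clearly, with log2 fold changes of -0.20 in mCKO and -1.44 in iCKO and a difference of 1.27 ± 0.18 (adjusted p = 5.9e-04). Mrpl42 was at 103% of control in mCKO, where 283, 319 and 485 CPM overlapped with 320.3, 328 and 410.2 CPM in CTR1, and at 44.4% in iCKO (difference 1.24 ± 0.29, adjusted p = 0.011). Mrpl4 and Mrps9 had differences of 1.04 ± 0.18 (adjusted p = 0.0020) and 0.85 ± 0.17 (adjusted p = 0.0052). Together with Mrpl37, another mitochondrion-specific large-subunit protein (0.69 ± 0.17, adjusted p = 0.014), these are the 5 genes whose difference was called in each of the 19 alternative fits. The calls of the other 8 (Mrps36, Mrpl55, Mrps27, Mrps2, Mrpl18, Mrpl44, Mrpl3 and Mrps18b) were each lost when some 1 library was left out. All 13 kept their sign.

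Of the 27 genes lower in iCKO, 6 were also among the 10 called lower in mCKO with the block: Mrpl14, Mrpl2, Mrpl28, Mrpl3, Mrps26 and Mrps9 (22.2% of the first list and 60% of the second). The pairs of controls are not shared between the models. By sign alone 57 of the 78 genes moved the same way in both, 47 of them down. Shares over all genes are not given for this overlap or for the signs, so neither is read as a trait of these genes. Mrps10 and Mrps34, lower in mCKO, stood at 96.3% and 99.2% of CTR2 in iCKO with overlapping groups. For neither did the difference between models pass the test (-0.31 ± 0.28, adjusted p = 0.46, and -0.32 ± 0.34, adjusted p = 0.54).

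**Figure D4:**
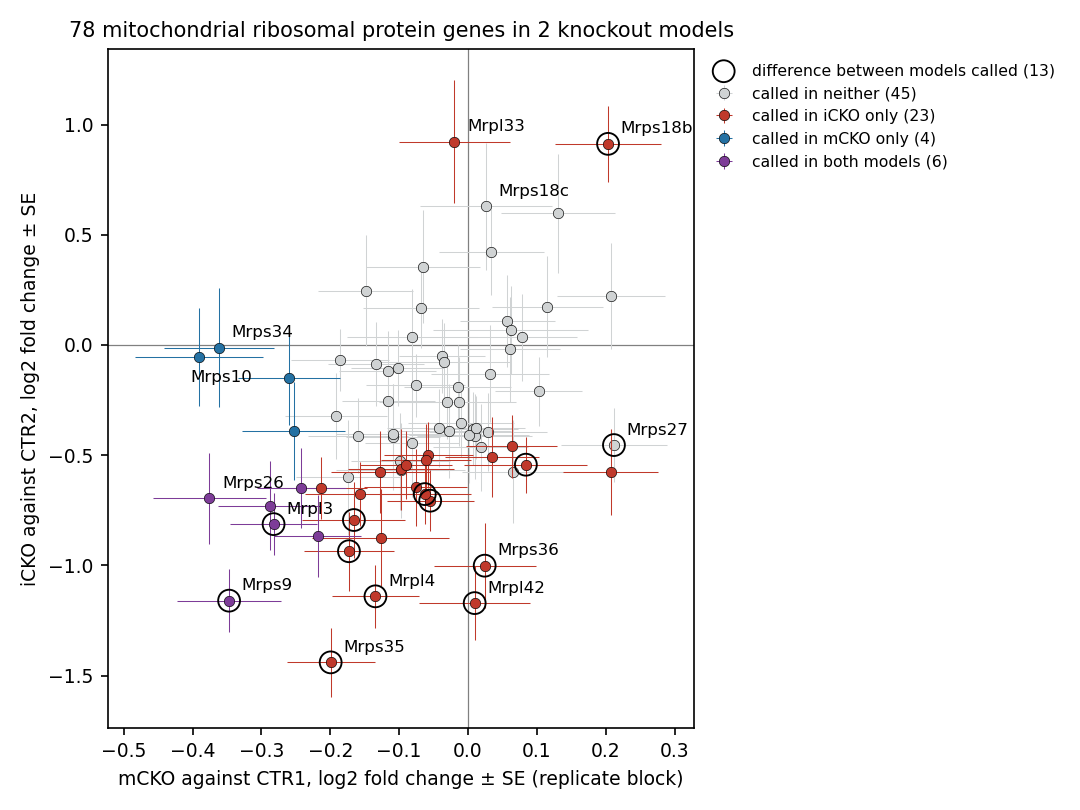
Log2 fold change of each of the 78 genes in mCKO against CTR1 with the replicate block (x axis) and in iCKO against CTR2 (y axis), with bars of ± SE and colours for the calls; open circles mark the 13 genes whose difference between models was called. The y axis spans far more than the x axis: Mrps35 is at -0.20 and -1.44, and Mrps18b and Mrpl33 stand alone at the top.

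Of 26 measured assembly factors, 13 were called lower and 0 higher, with a median log2 fold change of -0.48, and 8 of 14 translation factors were lower and 0 higher, with a median of -0.64. These were 18 and 11 lower without iCKO replicate 3. Tufm, the elongation factor that brings tRNA to the ribosome, held 294.9, 279.9 and 269 CPM in CTR2 and 138, 141 and 139 CPM in iCKO. These libraries hardly varied within a group (log2 fold change -1.01 ± 0.13, adjusted p = 6.1e-04). Oxa1l, which inserts new chains into the inner membrane, changed by -1.04 ± 0.14 (adjusted p = 6.2e-04), and Taco1, a translational activator for a cytochrome oxidase subunit, by -1.21 ± 0.22 (adjusted p = 0.0027). Among assembly factors the GTPases Mtg1 (-0.86 ± 0.15, adjusted p = 0.0023), Mtg2 (-0.70 ± 0.14, adjusted p = 0.0042) and Eral1 (-0.65 ± 0.14, adjusted p = 0.0054) fell, and so did Nsun4, an rRNA methyltransferase (-0.81 ± 0.16, adjusted p = 0.0039). In contrast to the ribosomal genes, replicate 3 did not stand above the other iCKO libraries for translation factors, whose medians against control were -0.56, -0.68 and -0.64 in replicates 1 to 3, while it was the highest for assembly factors at -0.30 beside -0.49 and -0.60.

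Of 25 genes for mitochondrial transcription and RNA handling 14 were lower and 3 higher (median -0.46), and the counts were the same without iCKO replicate 3. The lower ones included Lrpprc, which stabilises mitochondrial mRNA (-1.33 ± 0.18, adjusted p = 6.6e-04), and Twnk, the helicase of mitochondrial DNA (-1.09 ± 0.16, adjusted p = 0.0010), whose exons overlap those of Mrpl43 on the other strand. Genes listed as ribosomal proteins under other names numbered 6 (Dap3, Ptcd3, Chchd1, Aurkaip1, Gadd45gip1 and Lactb). Of these 1 was called, or 4 without iCKO replicate 3. The 1 was Ptcd3, at 147, 124 and 131 CPM in CTR2 and 66.1, 61.8 and 54.2 CPM in iCKO (-1.14 ± 0.15, adjusted p = 5.4e-04). The regulators of mitochondrial biogenesis were divided, with 5 of 15 lower and 2 higher, or 6 and 2 without iCKO replicate 3. Nrf1 (-0.13), Gabpa (-0.30), Yy1 (-0.17) and Sp1 (-0.38), named for the motifs above, were not called. A relation between motifs and regulators was not tested. Esrra, a nuclear receptor for oxidative genes, changed by -1.22 ± 0.14 (adjusted p = 3.4e-04), Esrrb by -2.02 ± 0.23 (adjusted p = 3.2e-04) and Ppara by -1.84 ± 0.27 (adjusted p = 9.7e-04), whereas Myc rose by 2.38 ± 0.34 (adjusted p = 8.8e-04). In mCKO with the block 1 of 26 assembly factors (Trub2) was higher and 0 lower. Lower were 3 of 14 translation factors (Gfm2, Mtif2 and Pdf) and 2 of 25 RNA genes (Tbrg4 and Lrpprc). Of 15 regulators 2 (Esrra and Ppara) were lower. Of all genes 6.45% were called lower and 7.32% higher in this fit. No other gene of these lists was called (Trub2, Gfm2, Mtif2, Pdf and Tbrg4 are named after their values were seen). With the block and without replicate 3 only 1 regulator was lower among these lists, where 1.27% of all genes were lower and 1.63% higher.

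Nuclear genes of the respiratory chain and genes of the cytosolic ribosome went in opposite directions in iCKO. Of 76 nuclear genes for oxidative phosphorylation 64 were called lower and 0 higher, with a median of -0.94, below that of the mitochondrial ribosomal proteins. Of 79 cytosolic ribosomal protein genes 57 were called higher and 0 lower, with a median of 0.90. Without iCKO replicate 3 the former were 76 lower, and the latter 57 higher and 1 lower with a median of 0.45. In iCKO replicates 1 to 3 the medians against control were -0.51, -0.61 and -0.06 for the mitochondrial ribosomal proteins, -0.97, -1.22 and -0.65 for oxidative phosphorylation and 0.44, 0.53 and 1.46 for cytosolic ribosomal proteins. Replicate 3 was the highest in each of these 3 lists. In mCKO with the block 19 of 76 oxidative phosphorylation genes were lower and 0 higher, and 2 of 79 cytosolic ribosomal protein genes were higher and 0 lower; without replicate 3 these were 4 and 1.

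**Figure D5:**
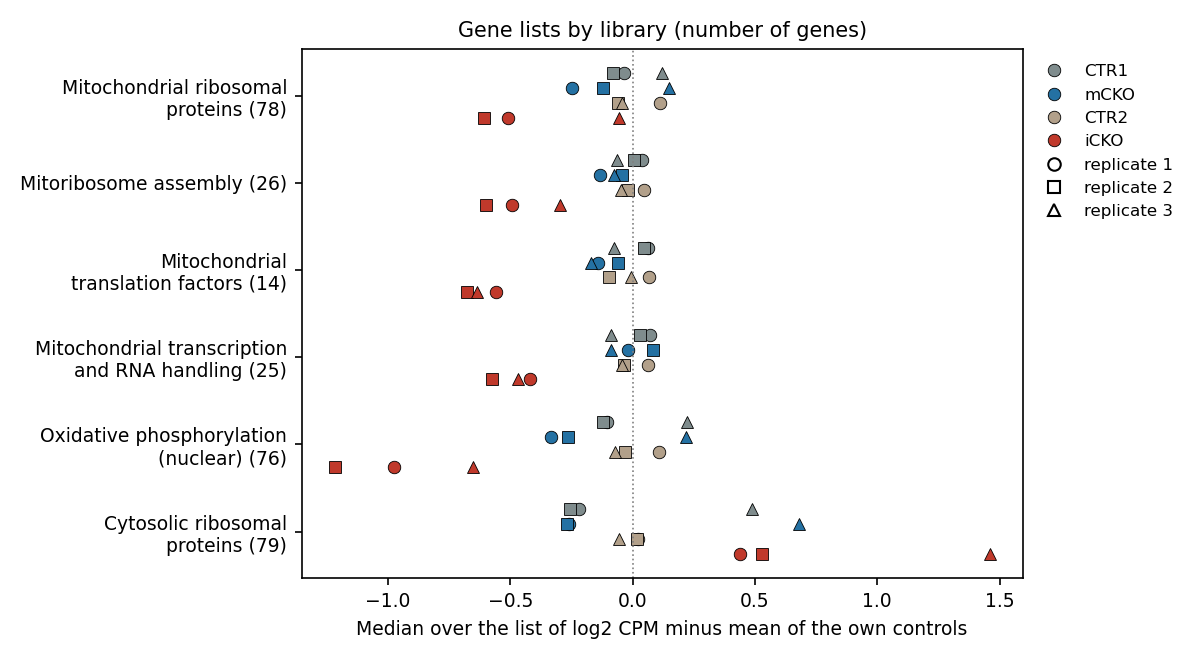
Median over each gene list of log2 CPM minus the mean of the control group, for 6 lists (rows, with the number of genes) in the 12 libraries (colours are groups, symbols replicates). In iCKO the 5 mitochondrial lists lie left of 0 and the cytosolic ribosomal proteins right of it, and replicate 3 (triangles) is furthest right in iCKO for the ribosomal, assembly and oxidative phosphorylation lists.

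Markers of cell types also differed from control in iCKO. Of 7 cardiomyocyte markers 5 were called lower and 0 higher, with a summed level of 45737 to 54859 CPM in iCKO against 78399.9 to 90264 CPM in CTR2. All 7 macrophage markers were called higher, at 538 to 984 CPM against 210.3 to 269 CPM. Of 7 fibroblast markers 4 were higher and 1, Dcn, lower, at 2529.8 to 4069 CPM against 834 to 897 CPM. Of 6 endothelial markers 3 were lower and 0 higher, at 793 to 888 CPM against 1119 to 1260.0 CPM, and all 5 erythroid markers were lower, at 60.1 to 260.5 CPM against 257 to 1170.2 CPM. None of these lists had a gene at 0 in any library. The cardiomyocyte count was 6 lower without iCKO replicate 3, and the other counts were the same. In mCKO with the block 4 of 7 cardiomyocyte markers were lower, at 53234 to 84926 CPM against 61478 to 95636 CPM, and 7 of 7 macrophage markers higher, at 428 to 642 CPM against 316 to 396 CPM in CTR1; 3 of 7 fibroblast markers were higher and no endothelial or erythroid marker was called. With the block and without replicate 3 these were 2 cardiomyocyte markers lower, 2 macrophage markers higher and 1 fibroblast marker higher. In replicate 3 of CTR1, mCKO and iCKO the summed cardiomyocyte markers were the lowest of their group, at 61478, 53234 and 45737 CPM (45781 in iCKO replicate 2). The sum over the 78 genes was the highest of its group in those libraries, at 5858, 6019 and 4318 CPM. In CTR2 replicate 1 was the highest in both, at 90264 and 4999 CPM. The part of the markers in the levels of the mitochondrial ribosomal genes was not tested.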

How the data were processed

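RNA of mouse left ventricle was measured in 12 libraries, extracted with Trizol and prepared with a stranded TruSeq mRNA kit per the labels' protocols. The values are gene counts deposited by the authors in 2 tables, mCKO with CTR1 and iCKO with CTR2. The submitters' processing notes name HISAT2, DESeq and GRCm38; the counting tool, versions, annotation and strand setting were not given in the sources used here. From the counts, genes were filtered with filterByExpr (minimum count 10, minimum total 15) and tested with edgeR 4.0.16 (quasi-likelihood, robust, trimmed mean scaling; R 4.3.3), each table over all its genes, with Benjamini-Hochberg adjustment, a two-sided threshold of 0.05 and SE taken from the F statistic. The difference between models was fitted on genes of both tables over 12 libraries. DESeq2 1.42.0, limma-voom (limma 3.58.1), other scalings, no filter, a replicate block and left-out libraries were alternatives; the counts per list without replicate 3 and the block with other scalings were added after seeing the data. Log2 CPM used a prior count of 2. The scripts were tested on simulated data.

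The labels give replicate numbers without saying what they share. In mCKO and CTR1 the deviations of same-numbered libraries from their group means correlated at 0.464, 0.532 and 0.823 across genes. Each pair was above the limit of 0.1, and the block is given beside those results. For replicates 1 and 2 this does not show a pairing, since a replicate 3 apart in both groups gives such a correlation by itself. Pairs of unlike number correlated as well, mCKO replicate 1 with CTR1 replicate 2 at 0.553 and mCKO replicate 2 with CTR1 replicate 1 at 0.529. In iCKO and CTR2 same-numbered libraries correlated at 0.0583, -0.0896 and -0.161, below that limit. A pairing by number is thus not shown there, and with 3 libraries per group it is not excluded. No pair of libraries of a group agreed within sampling noise.

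Genes named in the text were the 10 largest changes per direction among those called in a comparison, the 4 smallest p where fewer than 2 were called, those called in both models or in the difference, the 5 highest per length, the 3 lowest, the Mrps18 paralogs and Mrps36, and up to 4 called genes of each pathway list with the smallest adjusted p. The members and lists were chosen with earlier results of these data known. Transcript lengths and coordinates are from GENCODE M21 (principal transcripts) and promoters from RefSeq GRCm38.p6.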

Additional observations from a re-analysis of the deposited data

Results flagged for a closer look

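For 13 of the 78 genes the log2 fold change in mCKO minus that in iCKO differed from 0 in a test of the difference itself (edgeR quasi-likelihood over 12 libraries, Benjamini-Hochberg adjusted). Above 0, meaning lower in iCKO relative to its control than in mCKO, were Mrps35 (1.27), Mrpl42 (1.24), Mrps36 (1.08), Mrpl4 (1.04), Mrps9 (0.85), Mrpl55 (0.80), Mrps27 (0.70), Mrpl37 (0.69), Mrps2 (0.66), Mrpl18 (0.66), Mrpl44 (0.65) and Mrpl3 (0.57). Mrps18b was below 0 (-0.68). Mrps27 was lower than its control in iCKO by group mean without passing the test there, and its mCKO libraries were all above CTR1.

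The same difference was called for the 17 genes below, which were named because they were called, up to 4 of each pathway list. Esrrg, Gfm1 and Taco1 lost the call when some 1 library was left out (mCKO replicate 2 and CTR2 replicate 1 for all 3). Among assembly factors and ribosomal proteins under other names it was 1.15 for Mettl15, 0.72 for Mtg1, 0.73 for Eral1, 0.67 for Mtg2 and 1.03 for Ptcd3. Among translation factors it was 1.02 for Oxa1l, 0.90 for Tufm, 1.11 for Taco1 and 0.72 for Gfm1. For RNA and DNA handling it was 1.08 for Twnk, 1.20 for Ptcd2, 0.91 for Polg and 0.90 for Fastk. Of the regulators, Esrrb (1.87), Esrrg (1.48) and Esrra (0.79), the oestrogen-related receptors, were above 0 and the coactivator Pprc1 was below 0 (-1.17). Outside the 4, Myc (-2.13) and Rexo2 (-1.03) were also called below 0 and are named after their values were seen.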

How the results depend on the processing

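The median log2 fold change of the 78 genes kept its sign in iCKO and in the difference between models under every alternative run, but counts of calls moved. Shares of all genes are not given beside the counts of this paragraph, so their moves are not read as a trait of these genes. With library sizes only, iCKO gave 15 lower and 5 higher and the difference 7 above 0. Leaving out 1 library or 1 replicate number gave 7 to 58 lower and 1 to 4 higher in iCKO, 5 to 37 above and 0 to 1 below in the difference, and 0 to 6 lower in mCKO without the block. For the difference, limma-voom gave 0 below and DESeq2 with the replicate block 19 above and 2 below. In mCKO the replicate block gave 10 lower, DESeq2 with the block 4, and the block with size factors, without the filter or with library sizes only gave 11, 12 and 5 lower, the last with 4 higher. With the block and both libraries of replicate 1, 2 or 3 left out, mCKO had 5, 2 and 1 lower and, without replicate 1, 1 higher. In iCKO, where a pairing by number is not shown, the block gave 23 lower. Without replicate 1, 2 or 3 the block gave 8, 10 and 48 lower, with 4 higher without replicate 1 and 1 without replicate 3. Mrpl28 in mCKO, not called without the block, ranged from -0.52 without mCKO replicate 3 to 0.065 without CTR1 replicate 3, where it changed sign. The causes were not tested.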

Other observations

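Transcript length, which went with the shift of replicate 3 in single libraries, showed almost no relation with the fold change over the 78 genes in iCKO (Spearman's rho -0.01, a description across genes, which are not independent replicates). Over all tested genes with a known length rho was -0.10.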
